A study of Caenorhabditis elegans with 6 samples.

Results

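The excitatory ionotropic glutamate receptor genes of Caenorhabditis elegans were followed in sorted RIS neurons and in whole first-stage (L1) larvae. The members were the 10 genes glr-1 to glr-8, nmr-1 and nmr-2, matched by gene symbol in the authors' deposited table of RIS against whole larvae. Of these, 8 were among the 12072 genes of that table, and glr-3 and glr-7 were not listed under these symbols. RIS is an unpaired interneuron known as a sleep neuron: when it is active the animal stops moving and feeding. The labels list 3 RIS libraries and 3 whole-larva libraries, all from synchronized L1 animals that hatched overnight in M9 buffer. The RIS cells came from the strain RIS::mKate, in which the flp-11 promoter drives the fluorophore. Larvae were dissociated, and the labelled cells were isolated by flow cytometry. The reference was strain N2, frozen over liquid nitrogen as whole animals without sorting. The groups therefore differ in strain, dissociation and sorting as well as in cell content, and these cannot be told apart. The notes on the sort speak of mCherry-labelled AVK neurons, although titles, cell type and strain give RIS and mKate.

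Ionotropic glutamate receptors are cation channels built of several subunits that open when glutamate binds and depolarise the neuron. In C. elegans, GLR-1 and GLR-2 are AMPA-type subunits that assemble together in the command interneurons, where they carry fast excitation for touch avoidance and backward movement. NMR-1 and NMR-2 are the NMDA-type subunits, both of which an NMDA receptor needs, and they shape reversal behaviour and memory. The remaining GLR subunits are non-NMDA types with less well known partners, of which GLR-3 and GLR-6 act in the RIA interneuron and GLR-7 and GLR-8 have reporter expression in the pharyngeal nervous system. The comparison shows which of these transcripts RIS held at other levels than the whole larva.

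The AMPA-type subunit gene glr-1 was higher in RIS, and nmr-1 and glr-8 were lower, the former without RIS reads and the latter at the lowest step of them. The other 5, glr-2, glr-4, glr-5, glr-6 and nmr-2, did not pass an adjusted p of 0.05 per the authors' deposited table. Thus 1 of 8 measured members was higher (12.5%), against 9.84% of all genes, and 2 were lower (25%), against 26.4% of all genes. Both shares lay near the background of the table. The median log2 fold change was −0.52 for the members and −0.78 for all genes. That median falls between glr-5 and glr-4, so it does not depend on the fitted values of the 2 members with few or no RIS reads. No values per library were analysed, so spread is given only as the approximate 95% interval that the deposited F score allows. Since separate cultures are not mentioned in the labels, the p-values cover no more than the spread among these libraries, and that spread may be technical.

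**Figure D1:**
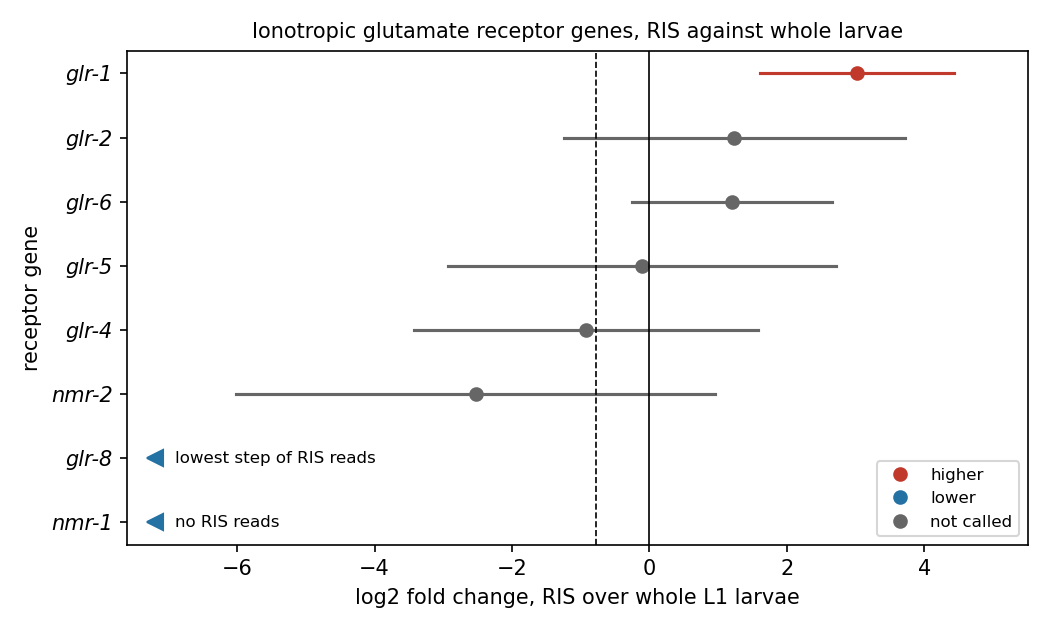
The x axis gives the deposited log2 fold change of RIS over whole L1 larvae for each receptor gene, with points for the fold change and lines for the approximate 95% interval. The solid line is 0 and the dashed line is the median of all genes, −0.78. The interval of glr-1 lies wholly above both lines, the other 5 intervals cross 0, and the triangles mark nmr-1 and glr-8, for which no fold is drawn.

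The AMPA-type gene glr-1 (WBGene00001612) was the one member higher in RIS. The authors' deposited table listed it at a log2 fold change of 3.02, an 8.10-fold difference, with an adjusted p of 0.00890 from its edgeR-format quasi-likelihood test. The approximate 95% interval ran from 1.61 to 4.43, and its lower end is a 3.04-fold difference. Its fold change stood at percentile 95.3 of all genes. With a mean of 21.8 CPM (reads of the gene per 1e6 reads) over both groups, it was also the most abundant member and the one measured with the smallest standard error, 0.59 on the log2 scale. The authors' deposited table, whose genome build is not named, places it at III 8584186 to 8588642. Its exons share 40 bases with a noncoding RNA gene on the opposite strand that was not listed.

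Its AMPA-type partner gene glr-2 (WBGene00001613; III 7138683 to 7144832) pointed the same way without passing the test. The authors' deposited table listed a log2 fold change of 1.24 and an adjusted p of 0.405. The interval ran from −1.25 to 3.72 and so held both no difference and the value of glr-1. At its standard error of 1.04, a log2 fold change of about 3.23 would have been needed for a call. Exons of glr-2 share 189, 431 and 32 bases with 3 noncoding RNA genes on the opposite strand, and whether the authors' counting used strand is not given in the sources used here.

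Approximate levels in each group were computed from the deposited mean CPM and fold change and divided by exon length, so that members could be set side by side. In whole larvae most receptor genes lay close together. The approximate level per kilobase of exon was 5.94 CPM for glr-5 and 0.492 for nmr-1, and the other 6 members lay between 1.29 (glr-2) and 2.05 (glr-8). In RIS the 6 members above few reads were spread more widely, from 12.9 CPM per kilobase for glr-1 through 5.51 for glr-5, 3.44 for glr-6, 3.04 for glr-2 and 1.05 for glr-4 to 0.249 for nmr-2. The non-NMDA genes glr-1, glr-5, glr-6 and glr-2 thus stood highest in RIS, in that order. The NMDA-type gene nmr-2 was lowest of these 6, above nmr-1 and glr-8, which had no or few RIS reads. These levels assume that both groups weigh equally in the mean. The number of RIS libraries behind the table is uncertain, since its degrees of freedom are those of a group of 2. If 2 of 5 libraries were from RIS, glr-1 would lie at 15.3 CPM per kilobase in RIS and at 1.88 in whole larvae, and the order in RIS is the same. The wider range in RIS rests on fold changes of which only that of glr-1 was called. For nmr-2, the lowest, the interval of the log2 fold change ran from −6.01 to 0.95. How far these levels vary over libraries is unknown, and neighbours in this order were not tested against each other.

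**Figure D2:**
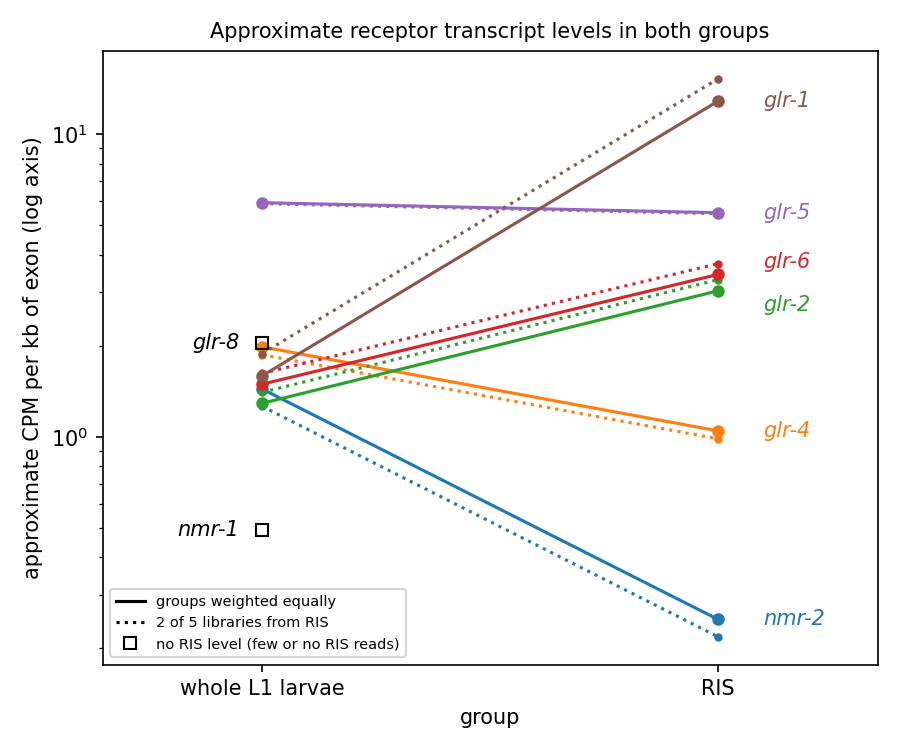
Approximate CPM per kilobase of exon (log axis) is shown for each receptor gene in whole L1 larvae and in RIS, joined by a line. Solid lines weight both groups equally, dotted lines give RIS 2 of 5 libraries, and open squares are members with no RIS level. Among the 6 members with a RIS level glr-1 stands highest at 12.9 and nmr-2 lowest at 0.249, whereas in whole larvae glr-5 is highest at 5.94.

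Among the remaining non-NMDA genes none passed the test. For glr-6 (WBGene00001617; X 6836386 to 6840615), a subunit of the RIA interneuron, the authors' deposited table listed a log2 fold change of 1.21 with an adjusted p of 0.173. Its interval from −0.25 to 2.66 was nearly as narrow as that of glr-1. Relative to the median of all genes its difference was 1.98, with an adjusted p of 0.0424, and it was then called higher together with glr-1, so that 2 of 8 members were higher against 16.6% of all genes. The call on glr-6 therefore depends on where the zero of the comparison is set. On that scale 2 of 8 were lower as well, against 20.3% of all genes. When genes without RIS reads were set aside 1 of 7 members was lower, against 25.2% of the genes left, and of the 2 members at or above median expression none was lower, against 24.3%.

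For glr-5 (WBGene00001616; V 8716495 to 8720893), a non-NMDA subunit gene with wide neuronal expression, the authors' deposited table listed a log2 fold change of −0.11 and an adjusted p of 0.954. The interval from −2.94 to 2.72 reaches from 7.66-fold lower to 6.58-fold higher in RIS, so this value does not show equal levels. Its mean of 16.4 CPM was exceeded among the members only by that of glr-1, yet its derived standard error of 1.19 was above those of the rarer glr-2, glr-4 and glr-6. That value and the interval of glr-5 are rough, as its fold change and its F score (0.00861) were both very small. For glr-4 (WBGene00001615; II 7785100 to 7794319) the authors' deposited table listed −0.92 with an adjusted p of 0.545 and a mean of 4.67 CPM. Its interval from −3.43 to 1.58 held 0 as well as the median of all genes.

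The NMDA-type gene nmr-1 (WBGene00003774; II 5440243 to 5446705) fell, with an adjusted p of 0.00679 per the authors' deposited table. Its test had 5.76 denominator degrees of freedom where most genes had 6.76, a loss found in 170 genes, all lower in RIS, and one that arises when every library of a group has no reads. No fold is given, since a fitted fold against no reads depends on an unstated prior count. The whole-larva level was itself low, at about 1.55 CPM (1.30 if 2 of 5 libraries were from RIS). The mean of 0.779 CPM per the authors' deposited table stood at percentile 0.124, just above the lowest of any listed gene, 0.704 CPM. Without RIS reads, nmr-1 could enter the table only through its whole-larva reads, so it had to be lower in RIS to be listed at all. Its absence from the RIS reads means that it was not detectable at this depth, which is unknown. In bulk libraries, fewer cells with a transcript and less of it per cell cannot be told apart.

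Its partner gene nmr-2 (WBGene00003775; V 15006412 to 15011660) was not called. The authors' deposited table listed a log2 fold change of −2.53 with an adjusted p of 0.227 and a mean of 2.59 CPM. The interval from −6.01 to 0.95 was the widest among the 6 members with a fold. At its standard error of 1.46 a log2 fold change of about 4.53 would have been needed for a call. Unlike nmr-1 it had RIS reads. The product of its fold change and mean CPM, which follows the RIS reads of low genes, was 35.7 times the lowest step among genes with such reads. It shares 60 exon bases with hrde-2 on the opposite strand, a gene listed as T01C3.9 at −2.27 with an adjusted p of 0.0939 per the authors' deposited table.

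The gene glr-8 (WBGene00001619; X 6506884 to 6509882) also fell, with an adjusted p of 0.00714 per the authors' deposited table. It had RIS reads, but the same product was 1.01 times that lowest step, so no fold is given. The mean was 2.09 CPM per the authors' deposited table and the whole-larva level about 4.16 CPM (3.47 if 2 of 5 libraries were from RIS). Per kilobase of exon it came next after glr-5 in whole larvae when both groups were weighted equally, at 2.05 CPM. Like nmr-1, it was listed on the strength of its whole-larva reads. Of 5 pharyngeal neuron genes, ceh-34, ser-7, ceh-28, gur-3 and tph-1, the last 3 were not listed under these symbols. The authors' deposited table listed ceh-34, a homeobox gene of pharyngeal neurons, at a log2 fold change of −2.82 (adjusted p = 0.113). The serotonin receptor gene ser-7 was higher there, at 4.65 (adjusted p = 0.00452). How far the fall of glr-8 moves with pharyngeal neurons was not tested.

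Ranked by fold change, the 6 members above few RIS reads ran from glr-1 through glr-2, glr-6, glr-5 and glr-4 to nmr-2. No neighbours in this order had separate intervals. Of the 15 pairs, 13 had overlapping intervals. The 2 pairs without overlap were glr-1 with glr-4 (difference 3.94 on the log2 scale) and glr-1 with nmr-2 (5.55). Both differences are a description, since the members were measured in the same libraries and the pairs were not tested.

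**Figure D3:**
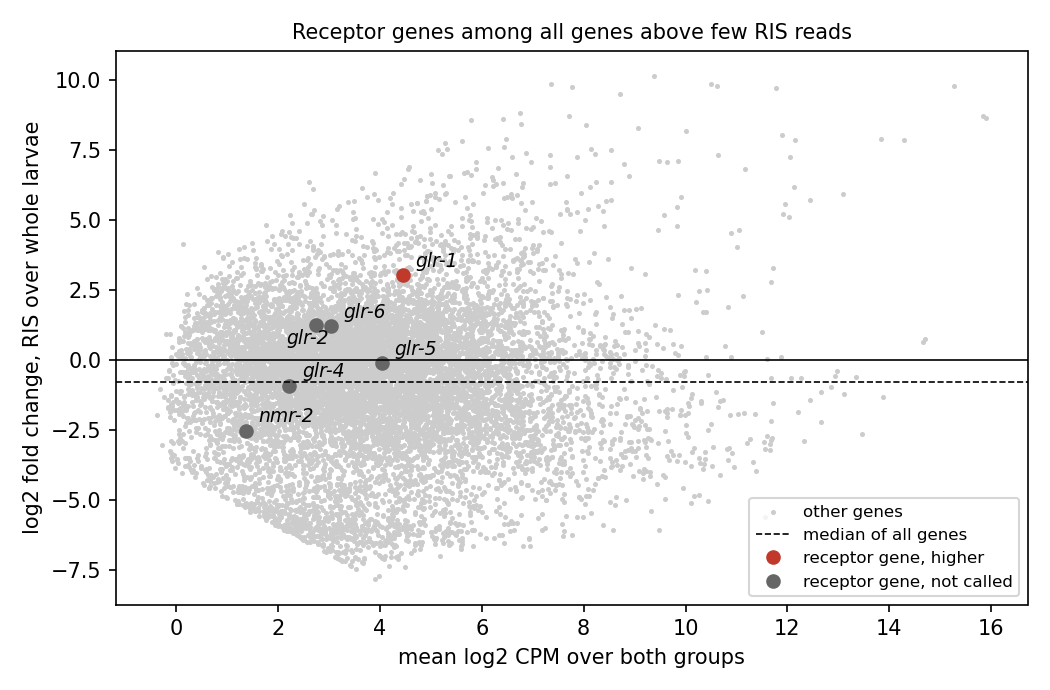
Each point is a gene of the authors' deposited table above few RIS reads, with its mean log2 CPM over both groups on the x axis and its log2 fold change of RIS over whole larvae on the y axis. The 6 labelled receptor genes have mean log2 CPM from 1.37 (nmr-2) to 4.44 (glr-1), and glr-1 at 3.02 is the one drawn in the colour of a higher call.

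Auxiliary subunits travel with AMPA-type receptors and set their gating or export. Of 5 such genes 1 was higher (20%) and 1 lower (20%), against 9.84% and 26.4% of all genes. Their median log2 fold change was 0.06 against −0.78 for all genes. The rise was that of sol-2, whose CUB-domain protein associates with the GLR-1 receptor complex, at 4.38 (interval 3.01 to 5.75, adjusted p = 0.00417) per the authors' deposited table. Its companion gene sol-1, which encodes a CUB-domain protein needed for GLR-1 currents, was not called at 0.60 (adjusted p = 0.446) per the authors' deposited table. The stargazin-like genes split, with stg-1 lower at few RIS reads (adjusted p = 0.0148) and stg-2 not called at −0.76 (adjusted p = 0.619) per the authors' deposited table. Of the 949 genes at few RIS reads 940 were called lower, so the call on stg-1 was nearly fixed by that class. The cornichon gene cni-1, which limits export of GLR-1 from the endoplasmic reticulum, was not called at 0.06 (adjusted p = 0.957) per the authors' deposited table.

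Genes that move GLR-1 along neurites or remove it included several rises. Of 16 such genes 4 were higher (25%) and 1 lower (6.25%), against 9.84% and 26.4% of all genes, with a median of 0.49. After the median of all genes was subtracted, 7 were higher and 1 lower, where 16.6% of all genes were higher and 20.3% lower. The authors' deposited table listed 3.70 for klp-4, a kinesin that carries GLR-1 to synapses (adjusted p = 0.00291). It gave 3.26 for the ubiquitin ligase gene rpm-1 (adjusted p = 0.00382) and 2.75 for lin-10, a PDZ-domain protein gene of receptor recycling (adjusted p = 0.00527), in the same authors' deposited table. The Kelch adaptor gene kel-8, which promotes GLR-1 turnover, followed at 1.58 (adjusted p = 0.0441) per the authors' deposited table. The lower gene, wdr-48, an activator of the deubiquitinase USP-46, lay at few RIS reads (adjusted p = 0.00527), where a lower call is nearly fixed. The gene usp-46 itself was not called at −0.64 (adjusted p = 0.460) per the authors' deposited table. The 4 uncalled genes with the smallest p were fsn-1, the F-box partner of rpm-1, at 1.99 (adjusted p = 0.0506), the clathrin adaptor gene unc-11 at 1.91 (adjusted p = 0.0593), the kinesin light chain gene klc-2 at 0.99 (adjusted p = 0.266) and the synaptic scaffold gene magi-1 at −0.80 (adjusted p = 0.299) per the authors' deposited table. These genes serve many cargoes and are not specific to glutamate receptors.

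Of 8 measured genes for loading and clearing glutamate none was higher and 4 were lower (50%), with a median of −3.35. Over all genes 9.84% were higher and 26.4% lower, so a list of 8 without a rise lies near the background. None was higher at an unadjusted p below 0.05 either, or once the median of all genes was subtracted. The authors' deposited table listed −5.82 for the transporter gene glt-3, −6.51 for vglu-3 and −3.11 for vglu-2, the last 2 related to vesicular glutamate transporters. The fourth, glt-7, lay at few RIS reads, where a lower call is nearly fixed. The vesicular transporter gene eat-4, which marks glutamatergic neurons, was not called at −3.58 (adjusted p = 0.0605) per the authors' deposited table. The transporter genes glt-1 at −1.85, glt-5 at −1.72 and glt-6 at 0.18 were not called per the authors' deposited table, and glt-4 was not listed under that symbol.

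Among glutamate receptors of the other classes, the glutamate-gated chloride channels and the metabotropic receptors, 4 of 9 genes were higher (44.4%) and 1 lower (11.1%), against 9.84% and 26.4% of all genes, with a median of 0.45. The difference from the ionotropic cation channels was not tested. The authors' deposited table listed a log2 fold change of 5.21 for the metabotropic gene mgl-2, and 4.08, 3.08 and 2.27 for the chloride channel genes avr-15, glc-4 and avr-14, against the 3.02 of glr-1. The approximate intervals of these 4 genes all overlapped that of glr-1, 1.61 to 4.43. The channel gene glc-1 fell (−3.55), and mgl-3, glc-2, mgl-1 and glc-3 were not called, between −3.12 and 0.45, per the authors' deposited table.

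**Figure D4:**
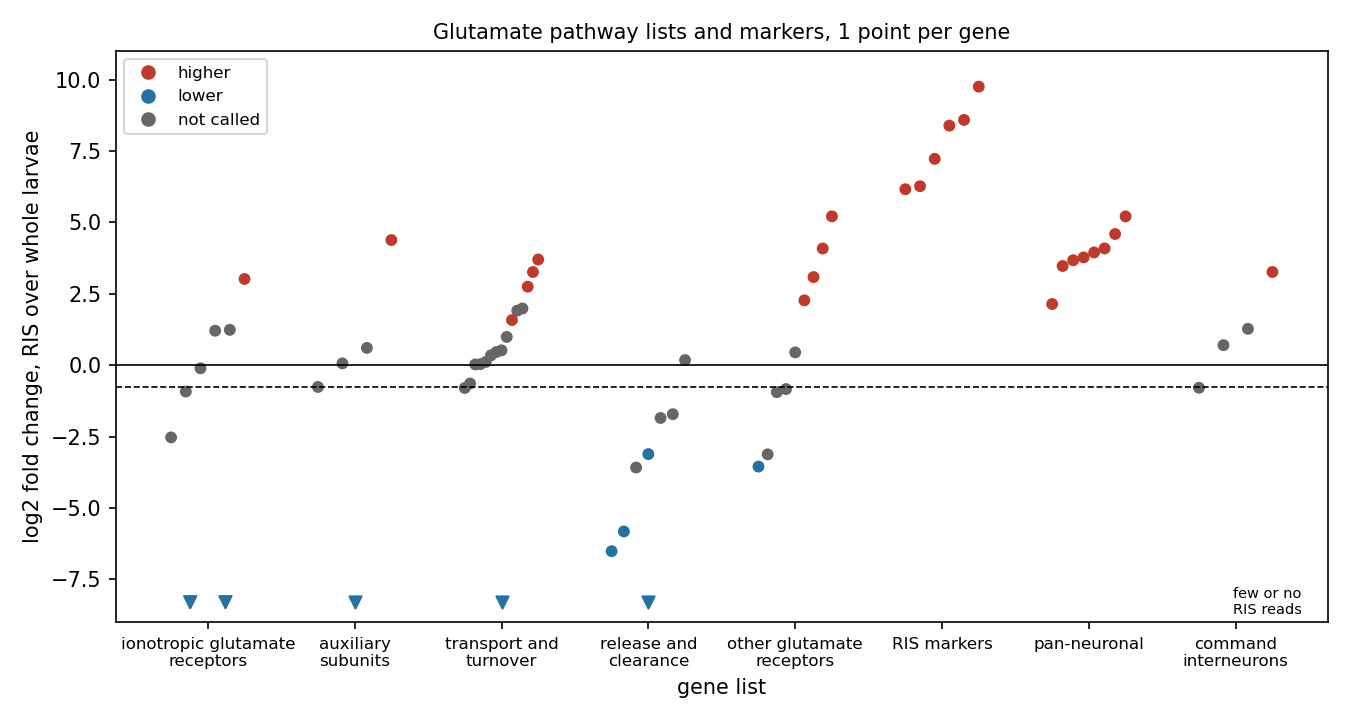
Each point is 1 gene, placed by its log2 fold change of RIS over whole larvae per the authors' deposited table and coloured by its call, for the receptor genes, 4 related lists and 3 marker lists of neurons. Triangles mark genes at few or no RIS reads, for which no fold is drawn, the solid line is 0 and the dashed line is the median of all genes. The receptor genes spread over both sides of 0, while all 6 RIS markers and all 8 pan-neuronal genes are higher.

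Markers put these values in the context of the sort. All 6 RIS markers were higher, with a median log2 fold change of 7.80, flp-11 among them, whose promoter was used for sorting. All 8 pan-neuronal genes were higher as well, with a median of 3.86 and a range from 2.14 (unc-64) to 5.21 (egl-21), per the authors' deposited table. The 3.02 of glr-1 lay within that range of genes shared by all neurons, but below their median. Only unc-64 had a smaller fold change than glr-1, and the next lowest was rab-3 at 3.47. Muscle, hypodermal, intestinal and pharyngeal muscle markers were lower for 12 of 13 genes, and the muscle myosin gene unc-54 (0.98, adjusted p = 0.0913) was not called per the authors' deposited table. The command interneurons are the best known site of glr-1, and of 7 of their genes 4 were measured. The peptide gene flp-18 was higher (3.26, adjusted p = 0.0197), and unc-42 (1.27), fax-1 (0.70) and rig-3 (−0.79) were not called, per the authors' deposited table. With the median of all genes subtracted, unc-42 was called higher too (2.05, adjusted p = 0.0415), as glr-6 was. On that scale the muscle gene unc-54 was also called higher (1.76, adjusted p = 0.0139), while the other 3 body wall muscle markers were lower. A higher call on that scale is thus not limited to neuronal genes. The genes cfi-1, sra-11 and opt-3 were not listed under these symbols. Of the RIM genes, cex-1 had no RIS reads (adjusted p = 0.00744 per the authors' deposited table), a state in which every listed gene was lower. The gene tdc-1 was not called (−2.42, adjusted p = 0.275) per the authors' deposited table, and gcy-13 was not listed under that symbol. The part of other neurons in the rise of glr-1 was not tested.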

How the data were processed

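RNA was sequenced from sorted RIS neurons and whole L1 larvae, with cDNA from a low-input SMART-Seq kit, per the labels' protocols. Which aligner, counter, build and annotation were used is not given in the sources used here. A table of 12072 genes was deposited by the authors, and it has no column for a single library. The log2 fold change and mean log2 CPM deposited by the authors, their F score, their p-value and its false discovery rate have the columns that edgeR's quasi-likelihood test writes, per the file headers. A positive fold change means higher in RIS, as the file name and flp-11 give it. Depth and precision per library are unknown.

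Genes were called at the deposited adjusted p below 0.05 over all genes. A new Benjamini-Hochberg adjustment differed from the deposited one by at most 3.44e-15. Denominator degrees of freedom were recovered from F and p (6.76 for 11902 genes, 5.76 for 170). A group without reads loses 1 degree when it has 2 libraries and 2 when it has 3, whereas the labels list 3 RIS libraries, so the number of RIS libraries behind the table is uncertain. The standard error was taken as the size of the log2 fold change divided by the root of F. Genes up to 5 times the lowest step of RIS reads (949, of which 940 were called lower) were treated as few RIS reads and given no fold. By this definition a lower call was nearly fixed for them. Group levels were derived from mean and fold with RIS weights of 0.5 or 0.4, which moved the RIS level of the 6 members with a fold by at most 0.24 (log2). Exon lengths and overlaps came from Ensembl release 115 of WBcel235, where 4 of 8 members shared a start or end with the table, so the coordinates given are those of the table.

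The members and the 13 gene lists were chosen with earlier results of these data known. All members were named, and all called genes and up to 4 uncalled genes with the smallest p in each glutamate list, with the fixed marker genes. The genes usp-46 and hrde-2 were named outside this rule after their values were seen, as were the genomic neighbours. A comparison of the members' proteins was planned and not run, as no protein table was used here. Recovery of degrees of freedom, standard errors, intervals and calls was tested on simulated normal log2 values of fixed spread, not on counts. The check of the group levels inverted the formula that made them, so it could not fail. The rules for few or no RIS reads were not tested by simulation. The alternatives set the adjusted p at 0.01, required a 2-fold change, kept genes of at least median expression, renewed the adjustment, subtracted the median fold change of all genes, or removed genes without RIS reads. Software was scipy 1.17.1, matplotlib 3.10.9, pandas 2.3.3 and numpy 2.4.6 under Python 3.11.15.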

Additional observations from a re-analysis of the deposited data

How the results depend on the processing

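The 6 alternatives gave 41 values for single members, of which 39 kept their direction and their side of the threshold. Only subtraction of the median altered the fold changes, so direction could not change under the other alternatives. The renewed adjustment over all genes differed from the deposited one by at most 3.44e-15, so it could not move a call. The 39 therefore include values that were fixed beforehand, and that count is not a measure of robustness. Relative to the median of all genes, glr-6 passed the threshold (1.98, adjusted p = 0.0424) and glr-5 changed sign without a call, from −0.11 to 0.67, so that 2 members were called higher in place of 1. Among genes at or above median expression, where only glr-1 and glr-5 remain, 0 members were called lower by the edgeR-format test with renewed adjustment, also at an unadjusted p below 0.05. Without the genes that had no RIS reads, 1 was called lower, glr-8. The reduction in both cases follows from the removal of nmr-1, or of nmr-1 and glr-8, from the genes tested. The call on glr-1 held under all 6. Of these, the renewed adjustment over all genes and the 2-fold requirement could not have removed it, given its log2 fold change of 3.02. Leaving out replicates and another normalization or count test were not run, since the table holds no values per library. No paired analysis was possible because the columns carry no replicate numbers. Depth is unknown, so the fall of nmr-1 and glr-8 is limited by detection in RIS.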

Other observations

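The listed genes just before and after each member, ordered by start position, did not share a common direction. Of these 16 neighbours 1 was higher, 6 were lower and 9 were not called per the authors' deposited table. Over all genes 9.84% were higher and 26.4% lower, so these counts lie near the background. The gene after glr-4, C06A8.3, overlapped the span of glr-4 and was lower at −1.91 (adjusted p = 0.0184) per the authors' deposited table. Its mean log2 CPM of 8.64 was above the 2.22 of glr-4. In the annotation used, glr-4 shared no exon bases with another gene. On both sides of glr-1, which rose, the neighbours doxa-1 (adjusted p = 0.00425, 258 bases away) and ztf-30 (adjusted p = 0.00796) were lower at few RIS reads per the authors' deposited table. At few RIS reads a lower call is nearly fixed. Next to nmr-1, at a distance of 976 bases, lies cex-1, a gene known from the RIM interneuron, and both were without RIS reads. The neighbour on the other side of nmr-1, dct-5, was lower at −3.35 (adjusted p = 0.0111) per the authors' deposited table. Beside glr-2 the gene ogt-1, which encodes the O-GlcNAc transferase, was higher at 2.08 (adjusted p = 0.00709) per the authors' deposited table.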
